A study of Venturia canescens with 6 samples.

Results

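A set of 84 gene models of the parasitoid wasp Venturia canescens had at least 2-fold more RNA in heads of asexual than of sexual females. The set was drawn from a table of 22333 models and was chosen by the measured levels themselves. A member had a mean of at least 5 CPM (counts scaled to an equal library total) in the asexual libraries, at least 2 times its sexual mean, and a lowest asexual value above the highest sexual value. Its mean over the 6 libraries was under 1000 CPM. Models numbered 2001 to 5500, or from 20001 on, were left out by the rule. Of the 16500 models in the remaining numbers, 9036 met the rule's limits on level, and the 84 members are 0.930% of these. The size and direction of the population difference are therefore given as a description. Standard errors, intervals and test calls of members printed below come from the libraries that chose them, so no support is drawn from them.

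The females came from 1 asexual and 1 sexual population. Each library was made from polyadenylated RNA of a pool of 30 heads, taken and frozen at adult emergence, and each population gave 3 libraries. Library totals ran from 9265064 to 13117716 counts, so that 1 count was worth 0.0762 to 0.108 CPM. Nothing in the sources used here says that the pools came from separate cultures. Pools of a population may thus differ only by the heads they hold and for technical reasons. Reproductive mode cannot be told apart from any other difference between the populations.

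Venturia canescens lays its eggs in moth larvae. As in other wasps, an unfertilised egg of a sexual female develops into a son, while asexual females produce daughters without mating. The insect head holds the brain, the eyes, the antennae, the mouthparts with their glands, muscle and some fat body, so that a whole-head library mixes RNA of many cell types. In such a mixture, fewer cells of a type and less RNA per cell cannot be told apart.

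The models carry numbers only. None of them matched the RefSeq genes of the species, so no member has a name, a known role, a position or a sequence here, and head tissue could not be checked against marker genes. Members are referred to below by their number.

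Most members differed by a modest factor around a level that both populations expressed. The ratio of the asexual to the sexual mean had a median of 2.58 over the 84 members, and 56 of them (66.7%) lay between 2 and 3. Another 12 lay between 3 and 5, 6 between 5 and 10, and 10 reached 10 or more. The median member had 21.1 CPM in asexual libraries, and the median of the sexual means was 6.95 CPM. Every member had at least 1 count in each sexual library, and 74 had at least 10 in each.

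**Figure D1:**
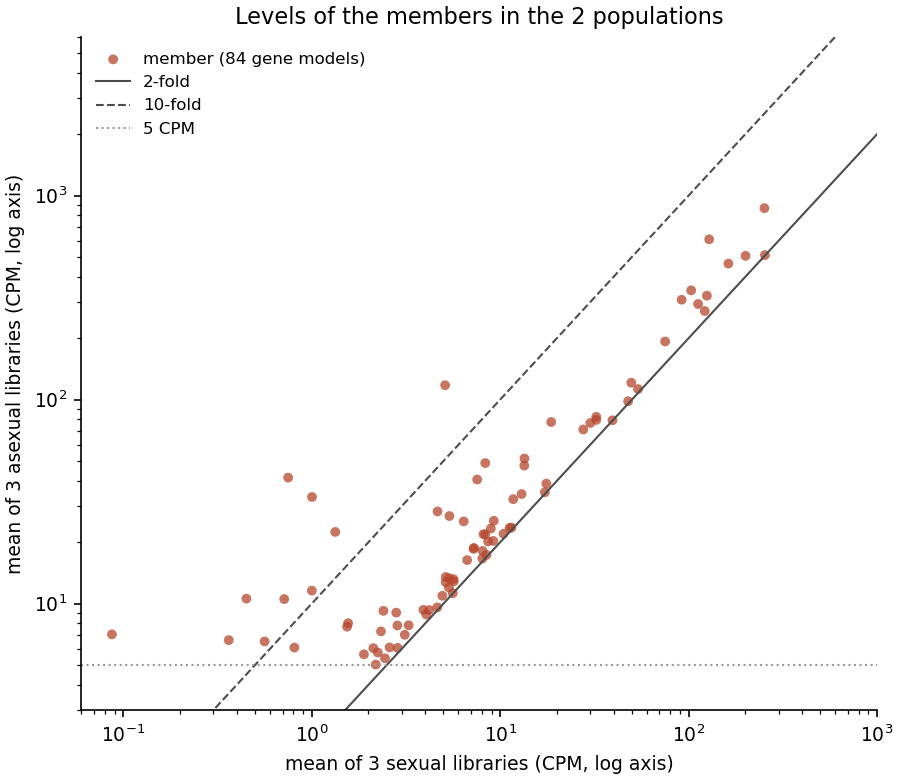
Mean level of each of the 84 members in the 3 asexual libraries (vertical axis, CPM, log scale) against its mean in the 3 sexual libraries (horizontal axis, CPM, log scale). Many points lie just above the 2-fold line where the sexual mean is above 1 CPM, the 7 members below 1 CPM have ratios of 7.53 to 81.2, and the 10 members on or above the 10-fold line have sexual means of 0.0871 to 5.10 CPM.

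A ratio of 5 or more was found in 6 of the 23 members with 5 to 10 CPM in asexual libraries, in 9 of the 39 with 10 to 50 CPM, in 0 of the 8 with 50 to 100 CPM and in 1 of the 14 above that. Members were also more frequent among weakly expressed models. They were 2.02% of the 1136 models with 5 to 10 CPM in asexual libraries, 0.903% of the 4319 with 10 to 50 CPM, 0.465% of the 1721 with 50 to 100 CPM and 0.753% of the 1860 above that. Counting error is larger at low counts, and its part in this order was not tested.

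The abundant members carried most of the RNA of the set. Together the 84 members took 0.624%, 0.729% and 0.663% of the counts in asexual replicates 1, 2 and 3, against 0.252%, 0.220% and 0.223% in sexual replicates 1, 2 and 3. The summed level averaged 6723 ± 529 CPM in asexual libraries and 2317 ± 174 CPM in sexual libraries (SD, n = 3 each), a ratio of 2.90. The 5 highest members held 44.0% of the asexual sum and the 10 highest held 66.9%. The other 79 members, without the 5 highest, gave nearly the same ratio, 2.85.

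Gene model g6410 was the most abundant member. It had 513, 1314 and 776 CPM in asexual replicates 1, 2 and 3, against 256, 292 and 209 CPM in sexual replicates 1, 2 and 3. The rule required that the populations did not overlap, but the asexual pools differed among themselves by 2.56-fold. Its log2 fold change was 1.78 ± 0.28 (SE), and 1.36 without asexual replicate 2, its highest pool.

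Gene model g7565 was next, with 531, 710 and 591 CPM in asexual replicates 1, 2 and 3, against 150, 126 and 110 CPM in sexual replicates 1, 2 and 3. Its lowest asexual pool lay far above its highest sexual pool, and its log2 fold change was 2.25 ± 0.14 (SE). Among the 19 members with a sexual mean of 20 CPM or more it had the largest ratio, 4.75.

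The third member by level, g15776, was close to the limit of the rule. It had 460, 548 and 524 CPM in asexual replicates 1, 2 and 3, against 391, 160 and 211 CPM in sexual replicates 1, 2 and 3. Sexual replicate 1 came near the asexual pools while the other 2 sexual pools did not, and the log2 fold change was 1.02 ± 0.26 (SE). It was 1.45 without that pool, 0.78 without sexual replicate 2 and 0.89 without sexual replicate 3, where the edgeR call at an adjusted p under 0.05 was lost.

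Gene model g14228 had 549, 441 and 529 CPM in asexual replicates 1, 2 and 3, against 259, 151 and 191 CPM in sexual replicates 1, 2 and 3. Here too sexual replicate 1 was the highest sexual pool, and the populations stayed apart, as the rule required. The log2 fold change was 1.35 ± 0.17 (SE).

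In the 10 members with a ratio of 10 or more, asexual means ranged from 6.53 to 117.6 CPM, with a median of 11.1 CPM, and sexual means from 0.0871 to 5.10 CPM. The most abundant of them was g12411, singled out after its values were seen. It had 109, 116 and 128 CPM in asexual replicates 1, 2 and 3, against 3.52, 5.08 and 6.71 CPM in sexual replicates 1, 2 and 3. All 3 pools of each population lay close together relative to the gap between them, and the log2 fold change was 4.51 ± 0.17 (SE).

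The largest ratio belonged to g10740, a weakly expressed model. It had 8.31, 6.90 and 6.01 CPM in asexual replicates 1, 2 and 3, against 0.0926, 0.0924 and 0.0762 CPM in sexual replicates 1, 2 and 3, where each library held a single count. The ratio of summed counts had a 95% counting interval (exact binomial) of 27.4 to 396, and such intervals cover counting error only. It was the only member with under 3 counts in every sexual library.

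Gene models g19705 and g19706 stand next to each other in the table and were both close to absent from 2 of the sexual pools. Model g19706 had 44.5, 43.2 and 36.7 CPM in asexual replicates 1, 2 and 3, against 0.370, 0.277 and 1.60 CPM in sexual replicates 1, 2 and 3. Its neighbour g19705 had 30.5, 36.6 and 32.8 CPM in asexual replicates 1, 2 and 3, against 0.278, 0.369 and 2.36 CPM in sexual replicates 1, 2 and 3. In each of the 2 models, sexual replicate 3 stood several-fold above the other sexual pools. Their log2 fold changes were 5.68 ± 0.31 and 4.94 ± 0.39 (SE), and 6.93 and 6.62 without that library. In sexual replicates 1 and 2, g19706 had only 4 and 3 counts and g19705 only 3 and 4.

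Gene model g12330 owed much of its ratio to 1 pool. It had 5.18, 5.01 and 21.6 CPM in asexual replicates 1, 2 and 3, against 0.648, 0.0924 and 0.610 CPM in sexual replicates 1, 2 and 3. Asexual replicate 3 alone was high, and the log2 fold change was 4.52 ± 0.76 (SE), against 3.44 without that pool.

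**Figure D2:**
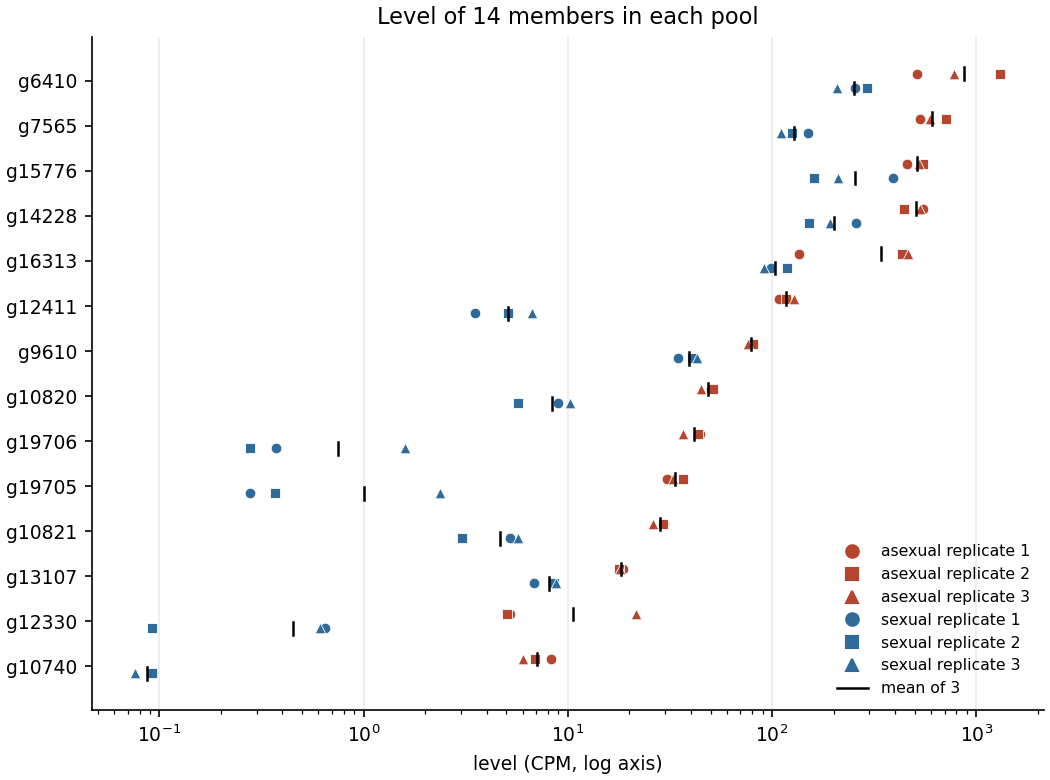
Level (CPM, log axis) of 14 members in each pool, with asexual pools above sexual pools for each model and a black bar at the mean of 3. By the rule, no member has overlapping populations. Models g6410, g16313 and g12330 have asexual pools that spread widely, and g19705 and g19706 have 1 sexual pool, replicate 3, above the other 2.

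Sexual replicate 3 was the highest sexual pool in 46 of the 84 members (54.8%), and in 27.9% of the 9036 models that met the limits on level. At large ratios it was the highest sexual pool in 8 of the 10 members with a ratio of 10 or more, whose summed level was 17.5 CPM in sexual replicate 3 and 6.85 and 9.79 CPM in the other 2 sexual pools. Leaving out the highest sexual pool can only raise a ratio, and without sexual replicate 3 the ratios of g19706 and g19705 were 128 and 103, against 55.3 and 33.2 with it. What raised these models in that pool was not tested. With it left out, the sexual means of g19706 and g19705 rest on 3 or 4 counts in each library.

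The asexual pools also differed in rank. Asexual replicate 1 was the highest of its population in 40 members (47.6%), replicate 2 in 30 (35.7%) and replicate 3 in 14 (16.7%). Over the 9036 models these shares were 37.5%, 32.3% and 30.2%. Asexual replicate 3 was the lowest asexual pool in 44 members (52.4%), against 45.1% of the 9036 models. The median deviation of a member from its population's mean was -0.09 on the log2 scale in that pool and 0.12 in sexual replicate 3. Over the 9036 models it was -0.027 and 0.007 in these 2 pools.

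**Figure D3:**
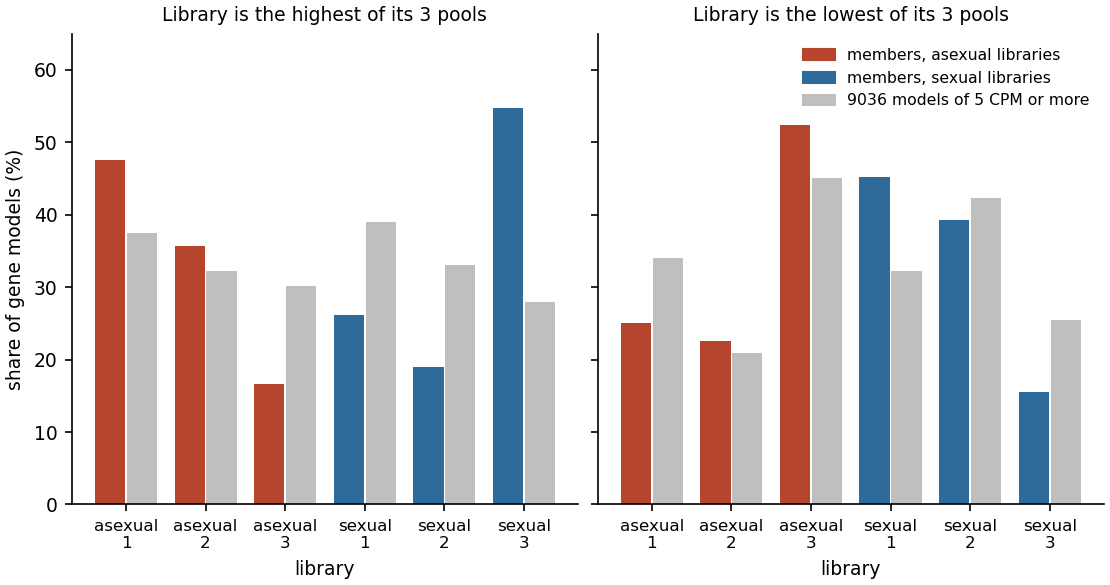
Share of gene models (%) in which a library is the highest (left panel) or the lowest (right panel) of the 3 pools of its population, for the 84 members (coloured bars) and for the 9036 models that met the limits on level (grey bars). Sexual replicate 3 is the highest sexual pool in 54.8% of the members and in 27.9% of the grey set.

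Asexual pools lay within 1.5-fold of each other for most members, but less often than over the 9036 models. The ratio of the highest to the lowest asexual pool was under 1.5 in 70 of the 84 and at least 2 in 5. Among the sexual pools it was at least 1.5 in 32 members and at least 2 in 11. A ratio of at least 1.5 among asexual pools was found in 16.7% of members and 7.23% of the 9036 models. Among sexual pools these shares were 38.1% and 8.79%. For a ratio of at least 2 they were 5.95% and 1.07% in asexual pools, and 13.1% and 1.06% in sexual pools. The median SD of log2 CPM among pools was 0.16 in asexual and 0.23 in sexual libraries, against 0.12 and 0.13 over the 9036 models. Non-overlap, which the rule asked of members and not of those models, favours a small spread. Members had fewer counts in sexual libraries, with a median of 77 counts per library against 213.5 in asexual libraries. Counting error is larger at low counts, and its part in the spread was not tested.

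The members that varied least among the asexual pools were g9610 and g13107. Model g9610 had 80.4, 80.4 and 76.6 CPM in asexual replicates 1, 2 and 3, against 34.5, 40.7 and 43.0 CPM in sexual replicates 1, 2 and 3. Model g13107 had 18.7, 17.8 and 17.9 CPM in asexual replicates 1, 2 and 3, against 6.85, 8.59 and 8.77 CPM in sexual replicates 1, 2 and 3. In both, the asexual pools differed by about 1.05-fold, while the sexual pools differed by 1.24-fold in g9610 and 1.28-fold in g13107. Log2 fold changes were 1.01 ± 0.10 and 1.17 ± 0.14 (SE).

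Beside g12330, the most uneven member in asexual heads was g16313. It had 135, 432 and 462 CPM in asexual replicates 1, 2 and 3, against 99.2, 119 and 91.3 CPM in sexual replicates 1, 2 and 3. Asexual replicate 1 lay barely above the sexual pools while the other 2 asexual pools were several-fold higher. The log2 fold change was 1.74 ± 0.36 (SE), and 2.12 without that pool. The pool that stood apart thus differed between models, being asexual replicate 1 in g16313, replicate 2 in g6410 and replicate 3 in g12330.

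The limits of the rule cut through a continuous range. The 2 members just inside the fold limit had ratios of 2.007 and 2.008, and the 2 models just outside had 1.998 and 1.9996. At the limit on level, the members just inside had 5.03 and 5.40 CPM in asexual libraries, and the models just outside had 4.73 and 4.89 CPM. The upper limit of 1000 CPM kept out 0 models that met the rest. Only 3 models had the fold and the level but overlapping populations. With no limit on fold, 1569 of the 9036 models had a lowest asexual value above the highest sexual value. With no range of numbers left out, 136 models met the other criteria, 28 of the added ones at 2001 to 5500 and 24 from 20001 on.

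A test across the whole table was fitted for reference, with edgeR's quasi-likelihood method and Benjamini-Hochberg adjustment. All 84 members were among the 11700 models tested, and all 84 were called higher in asexual females at an adjusted p under 0.05, where 6.79% of all tested models were. Since the rule used the same libraries and the same difference, nothing is read from this count. The median log2 fold change was 1.37 over the members and -0.0016 over all models tested. The members ranged from 1.01 to 6.18.

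The rule did not use the order of the table. The levels and calls of neighbouring models come from the same libraries and the same difference, so no support is drawn from them. Apart from g19705 and g19706, 1 other pair of members was adjacent, g10820 and g10821. Model g10820 had 50.1, 51.4 and 45.0 CPM in asexual replicates 1, 2 and 3, against 8.98, 5.73 and 10.3 CPM in sexual replicates 1, 2 and 3. Model g10821 had 29.5, 29.2 and 26.2 CPM in asexual replicates 1, 2 and 3, against 5.19, 3.05 and 5.72 CPM in sexual replicates 1, 2 and 3. In sexual heads replicate 2 was the lowest and replicate 3 the highest pool in both. Among the 84 members, replicate 3 was the highest sexual pool in 46 and replicate 2 the lowest in 33, so neither was particular to this pair. The highest asexual pool was replicate 2 in g10820 and replicate 1 in g10821. Their log2 fold changes were 2.55 ± 0.16 and 2.60 ± 0.18 (SE).

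Models listed directly beside members leaned the same way. Of 113 tested non-members in these rows, 16 (14.2%) were called higher in asexual females by edgeR and 3 (2.65%) lower, while 6.12% and 6.10% of all 11616 tested non-members were called higher and lower. Their median log2 fold change was 0.09, against -0.0033 over all tested non-members, and it was above 0 in 76 of the 113 (67.3%), against 49.4%. At 2 and 3 rows away 8.49% and 8.74% were called higher and 6.60% and 4.85% lower, with median log2 fold changes of 0.055 and -0.015. At 4 and 5 rows away 2.97% and 5.15% were called higher and 8.91% and 7.22% lower. No test of this difference was made, since models are not replicates.

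**Figure D4:**
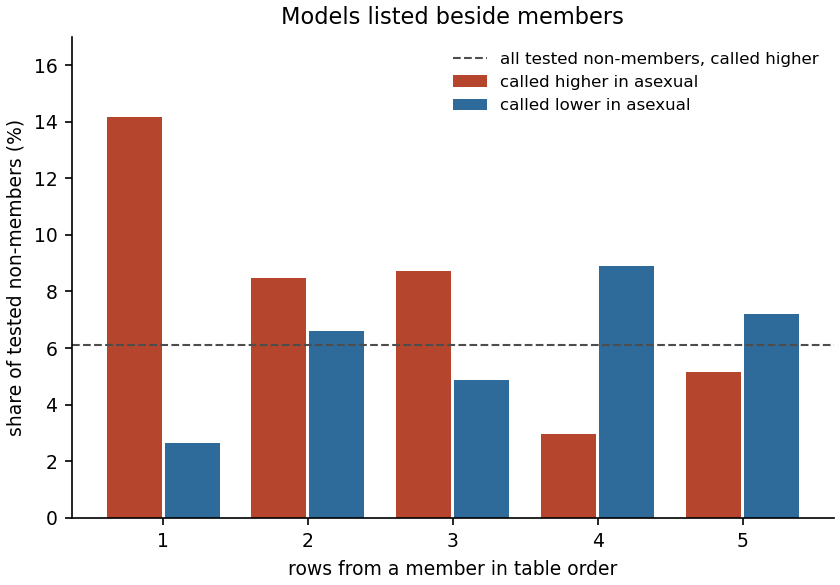
Share of tested non-members (%) called higher or lower in asexual females by edgeR, by the number of rows in table order from a member. The first bar, at 1 row, reaches 14.2%, and the dashed line marks 6.12%, the share called higher among all tested non-members.

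The 16 neighbours called higher had log2 fold changes of 0.29 to 3.49. In 4 of them the change exceeded 1 and the asexual mean was under 5 CPM, so that the limit on level kept them out of the set. Of these, chosen after their values were seen, g12997 lay between the members g12996 and g12998 and g18776 between g18775 and g18777. Each of these runs thus held 3 models in a row that were higher in asexual heads. Whether such runs are neighbouring genes, parts of 1 gene or models that share reads was not tested, because it is not stated what table order means.

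By number, members were spread over all the ranges left in. They were 0.446% of the models of sufficient level at 16001 to 18000, the lowest share of 8 ranges, and 1.71% at 18001 to 20000, the highest, where 8 of 469 models were members. The 16 members with a ratio of 5 or more lay in 6 of the 8 ranges, with none at 5501 to 8000 or 8001 to 10000.

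The set had a near mirror image among models lower in asexual heads. The same rule turned round gave 104 of the 9077 models that met its limits on level, against 84 of 9036. The median ratio of sexual to asexual means was 2.67 over the 104. A ratio of 5 or more was reached by 16 of the 84 members and 16 of the 104 models, and a ratio of 10 or more by 10 in each set. A level of 100 CPM or more in the higher population was reached by 14 members and by 15 models of the mirrored set. The summed level of the members was 4406 CPM higher in asexual than in sexual libraries, and that of the mirrored set fell by 3647 CPM. In each set the spread among pools was larger in the population with the lower level, at a median SD of log2 CPM of 0.31 in asexual and 0.20 in sexual libraries for the mirrored set. These figures come from the same libraries that chose both sets and were not tested.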

How the data were processed

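The authors deposited raw read counts per gene model for 6 libraries, not normalized. Trimmomatic, HISAT2 and DESeq2 appear in the submitters' processing notes without versions or roles. How reads were counted, on which annotation and build and with which strand setting, is not given here, so reads of overlapping, antisense or near-identical models may be shared, and 0 of 22333 models matched the 14011 RefSeq genes (ASM1945775v1). The group label assigned libraries, and 0 columns lacked a sample. Same-population libraries differed beyond sampling noise (chi-square per degree of freedom 8.45 to 22.0), so all were kept.

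CPM was counts over column totals. The members, named models, lists and tests were chosen with earlier results of these data known. Named were the 4 highest members, the 4 with the largest fold change, adjacent members and the most and least even in asexual pools. The fit was edgeR 4.0.16 (R 4.3.3) with TMM factors, filterByExpr defaults and population as the only term, with p-values adjusted over 11700 models. SE is the log2 fold change over the square root of F. SDs of log2 CPM used a prior count of 2. The fit was tested on simulated counts. Alternatives were other scaling, filters, thresholds, DESeq2 1.42.0, limma-voom 3.58.1, a replicate block and leaving out each library. Members were compared with models meeting the level limits.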

Additional observations from a re-analysis of the deposited data

How the results depend on the processing

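The rule asked for non-overlapping populations in the same libraries, so the direction of the members was fixed by it in each fit, and their calls are a description only. The filter of 5 CPM in 3 libraries left 77 members. With 1 library left out at a time, 78 to 84 members were called higher, among 398 to 773 of 11700 models called higher. Both counts were lowest without sexual replicate 3. Over the libraries left out, the members had a median log2 fold change of 1.32 to 1.43 and a ratio of summed levels of 2.78 to 3.03. DESeq2 called 83 members higher, among 737 called higher of 18884 models with a fold change, and limma-voom 83 among 800 of 11700. Gene model g15776 lost its call without sexual replicate 3, without asexual replicate 2 and by DESeq2, and g16313 without sexual replicate 3. Over all models 1504 were called in the full fit, 829 without sexual replicate 3, 834 without asexual replicate 2, 990 without asexual replicate 1 and 706 at an adjusted p under 0.01, with a range of 829 to 1556 over the libraries left out. The stricter threshold lowers this count by construction. Leaving out a library did not always do so, since 1556 models were called without sexual replicate 2 and 1530 without asexual replicate 3, and the cause of the lower counts was not tested.

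The size of the set follows its limits. It was 266 at a fold of 1.5, 28 at 3 and 19 at 4, 202 and 149 with asexual means of at least 1 and 2 CPM, and 136 with no numbers excluded. Applied without each library in turn, the rule gave 86 to 94 models, of which 75 to 79 were among the 84. TMM-scaled CPM gave 87 models, including all 84.

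With a replicate block all 84 members were called higher, among 592 of 11700 models called higher and 1165 called in either direction. Replicate numbers are not said to pair the libraries. Over the 11700 tested models, deviations of same-numbered libraries correlated by -0.22, 0.0094 and 0.042 for replicates 1, 2 and 3. Over the 84 members these values were -0.098, 0.22 and 0.035. Libraries of different numbers correlated more strongly in some pairs, by 0.31 for asexual replicate 1 with sexual replicate 2, 0.29 for asexual replicate 3 with sexual replicate 1 and -0.32 for asexual replicate 3 with sexual replicate 2. Depth limits ratios of weak members, since 3 counts are 0.229 to 0.324 CPM.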
